A study of Homo sapiens with 9 samples.

Results

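The heat shock factor genes HSF1, HSF2 and HSF4 and the polyubiquitin gene UBB were followed in A375R melanoma cells after treatment with VHL-r or R4VPL3-1. These 4 genes were taken by symbol from the 62710 genes of the deposited table, whatever their values. A375R is a human melanoma line, derived from A375, that resists an inhibitor of mutant BRAF. The study cultured this line in medium with 2 µM of the BRAF inhibitor PLX4032, which the labels of these libraries do not mention. In the PROTAC-like compound R4VPL3-1 a binder of the ubiquitin ligase RNF4 is linked to a recruiter of the ubiquitin ligase VHL, and VHL-r is that recruiter without the rest. The cells were exposed for 2 h to DMSO or to 10 µM of either compound, with 3 libraries per treatment and 9 in all, so the compounds are compared at the same dose and time. The control libraries carry a WT label with no dose, and the study gives DMSO as their treatment. The repeats are described as biological but the labels give only their numbers, so p-values measure the spread between these libraries.

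Heat shock factors are transcription factors that bind heat shock elements, inverted repeats of the triplet GAA, in front of chaperone genes. HSF1, the main factor of the heat shock response, is held inactive by chaperones in unstressed cells and is activated largely at the protein level, when it forms trimers upon protein damage. HSF2 can join HSF1 in mixed trimers, and HSF4 is best known for its role in the lens. UBB encodes several ubiquitin units joined head to tail, and is known as a stress-responsive source of free ubiquitin, whereas RPS27A encodes a single ubiquitin fused to a ribosomal protein.

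Poly(A) RNA was sequenced as strand-specific reads, and the deposited value is a normalized count, the number of reads on a gene divided by a size factor of its library. The reads behind the values summed to between 26435568 and 32085626 per library, and the size factors lay between 0.9341 and 1.1012. The melanocytic marker SOX10 was present at 7900 to 17935 normalized counts, with DCT, MITF and S100B also present, whereas MLANA was at 0 in every library and TYR did not exceed 2.14, so these pigment cell markers were at or near 0. SOX10 lay between 17007 and 17935 in DMSO, between 9133 and 11216 in VHL-r and between 7900 and 8752 in R4VPL3-1, so SOX10 was lower in both treated groups without overlap. MITF was too, at 1497 to 1994 in DMSO, 983 to 1136 in VHL-r and 893 to 1235 in R4VPL3-1. Limma called both genes lower in each treatment against DMSO. DCT, S100B and PMEL, the last at 20.9 to 36.8, were not called against DMSO in either treatment. Of the markers of dedifferentiated melanoma, AXL was called lower in both treatments. NGFR was called lower and EGFR higher in R4VPL3-1 against DMSO, and neither in VHL-r. The 9 markers of epithelial, fibroblast, leukocyte and endothelial cells summed to 1464 to 1839.5 normalized counts in DMSO, 1239 to 2258 in VHL-r and 1357 to 1720.2 in R4VPL3-1. Of these 9, 5 could be tested. In R4VPL3-1 relative to DMSO 1 of them, KRT14, was called lower and 0 higher, and in VHL-r relative to DMSO LUM was called lower. The highest of the 9 were COL1A1, at 729 to 1635 normalized counts, and KRT14, at 224 to 365, whereas CD68 did not exceed 2. The part of these markers in the results was not tested.

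Heat shock elements were searched in the 300 bases before the canonical start of each gene on GRCh38, as a pair of units (GAANNTTC or TTCNNGAA) or as 3 adjoining units, in which GAA and TTC alternate in either order with NN between them. The 3-unit motifs contain the paired ones, and each set was read on both strands. Only exact matches were counted, so imperfect units were not searched. UBB held 1 paired motif, which begins 295 bases before its canonical start at 16381091, and no exact 3-unit motif. The bases that follow this pair are cagagctttc, in which gag stands where a further GAA unit would adjoin. The UBB pair is printed here with 3-unit motifs of HSP90AA1, HSPA8 and HSPH1, which were called higher in R4VPL3-1 than in both other groups, and of CRYAB and SERPINH1, which were not called in any comparison. These are 5 of the 9 listed targets that held one, chosen after their values were seen. Of the others, HSPD1 and CHORDC1 were also called higher in R4VPL3-1 than in both other groups, and DNAJB6 and JMJD6 than in DMSO only. Capitals mark the GAA and TTC units.
UBB, chr17:16380792-16380807, plus strand: caagGAAgtTTCcaga
HSP90AA1, chr14:102087116-102087136, minus strand: gttcTTCcgGAAggTTCggga
HSPA8, chr11:123062175-123062195, minus strand: ccccTTCtgGAAggTTCtaag
HSPH1, chr13:31161947-31161967, minus strand: cagaTTCtgGAAagTTCtgat
CRYAB, chr11:111911807-111911827, minus strand: accaTTCcaGAAgcTTCacaa
SERPINH1, chr11:75562173-75562193, plus strand: aactTTCcaGAAgtTTCtcgg
The paired motif of UBB spans 16380796 to 16380803 and so crosses 16380798, where the most upstream of its annotated transcripts begins. HSF1, HSF2 and HSF4 held neither motif in this window. Of 15221 tested genes with a canonical start, 1571 (10.3%) held a paired motif and 47 (0.309%) a 3-unit motif in the same window. This window was chosen after the RefSeq promoter windows of HSF2, HSF4 and UBB, which reach from 250 bases before to 50 after other annotated starts on GRCh38.p14, had been found to hold neither motif. Among all 27305 RefSeq promoters of that length, 13.7% held a paired motif and 0.487% a 3-unit motif. A match is only a match of letters, and none of these windows was measured for binding.

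UBB (ENSG00000170315) lies on the plus strand at chr17:16380798-16382745 of GRCh38 and has 2 exons in its canonical transcript and 9 annotated transcripts. HSF1 (ENSG00000185122) lies at chr8:144291591-144314720, HSF2 (ENSG00000025156) at chr6:122399551-122433119 and HSF4 (ENSG00000102878) at chr16:67164681-67169945, all on the plus strand and each with 13 exons in the canonical transcript.

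UBB was the most abundant of the 4 genes in every group. Per kilobase of annotated exon, its level was 9976 ± 335 normalized counts (SD, n = 3) in DMSO, which placed it at the 99.5th percentile of the 15221 tested genes with a length. HSF1 followed with 655 ± 47.9 per kilobase (SD, n = 3) in DMSO and HSF2 with 222 ± 2.97 (SD, n = 3). HSF4 was lowest, with 27.6 ± 0.82 per kilobase (SD, n = 3), at the 28.4th percentile. This order held in all 9 libraries, and no neighbours in it overlapped. On the same per-kilobase scale, the ratio of HSF1 to HSF2 was 2.79 to 3.16 in DMSO, 2.59 to 3.29 in VHL-r and 2.65 to 2.77 in R4VPL3-1. The size of a ratio between genes depends on the lengths used. With the longest transcript as length, HSF1 in DMSO was at 1008 per kilobase, but HSF2 only at 226, so their ratio was larger. The ratio of UBB to HSF1 was 14.6 to 16.5 in DMSO, 16.2 to 16.8 in VHL-r and 20.7 to 22.1 in R4VPL3-1, with no overlap between R4VPL3-1 and the other groups.

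UBB rose upon treatment with R4VPL3-1. Its normalized counts were 16089.9, 15747 and 15059.8 in DMSO replicates 1, 2 and 3, 15693, 16410.3 and 17362 in VHL-r, and 21059.6, 20952 and 19985 in R4VPL3-1. The lowest R4VPL3-1 library lay above the highest library of either other group, whereas DMSO and VHL-r overlapped. The group means were 15632 ± 525 (SD, n = 3) for DMSO, 16488 ± 837 (SD, n = 3) for VHL-r and 20665 ± 592 (SD, n = 3) for R4VPL3-1. In bulk RNA a change in the cells present and a change in RNA per cell cannot be told apart. Against DMSO, UBB was 1.32-fold higher in R4VPL3-1 (95% interval 1.24 to 1.41), a log2 fold change of 0.40 on the log2(normalized count + 1) scale (standard error 0.044, limma adjusted p = 6.44e-07). Against VHL-r it was 1.25-fold higher in R4VPL3-1 (95% interval 1.18 to 1.34), 0.33 on the log2 scale (limma adjusted p = 9.23e-05). In VHL-r against DMSO it was not called, with a fold of 1.05 (95% interval 0.989 to 1.12, limma adjusted p = 0.266), so a rise above 1.12-fold lay outside the interval. The difference between the compounds is the R4VPL3-1 against VHL-r comparison itself, and the pair of comparisons against DMSO share the DMSO libraries.

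**Figure D1:**
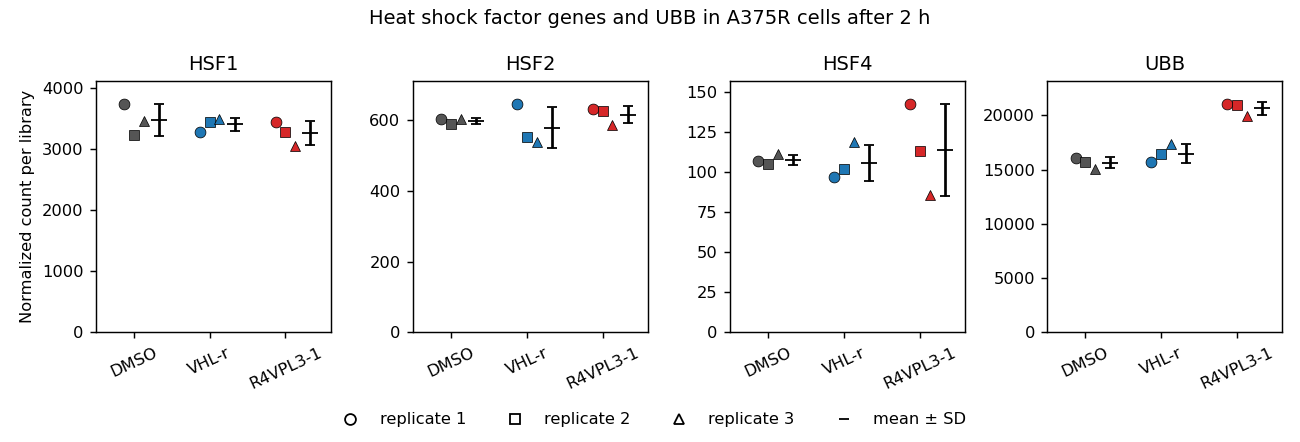
Normalized count of HSF1, HSF2, HSF4 and UBB in each library (vertical axis, from 0, with its own range per gene) for the DMSO, VHL-r and R4VPL3-1 groups on the horizontal axis, with symbols for replicates 1 to 3 and a bar for the mean ± SD of 3 libraries. The R4VPL3-1 libraries of UBB, at 19985 to 21059.6, lie above all others, and the groups of the other genes overlap.

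Among the 4 genes, UBB alone was called in R4VPL3-1 against DMSO, where 24.9% of the 15230 tested genes were called and 13.1% were called higher. It was also the 1 gene of the 4 called in R4VPL3-1 against VHL-r, where 1.87% of tested genes were called and 1.14% called higher. In VHL-r against DMSO, 19.8% of tested genes were called and 10.3% called higher, and 0 of the 4 by limma, edgeR or DESeq2, with 0 at an unadjusted limma p under 0.05. Groups that did not overlap, with the first named higher, were found for 19.1% of tested genes in R4VPL3-1 against DMSO, for 6.99% in R4VPL3-1 against VHL-r and for 17.1% in VHL-r against DMSO. The size of the UBB change was moderate for its comparison. Its log2 fold change against DMSO was at the 88.8th percentile of all tested genes, and 1147 of the 1995 genes called higher there had a larger one. Against VHL-r, UBB was at the 94.46th percentile, and 133 of the 174 genes called higher lay above it.

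HSF1 mRNA was not called in any comparison. Its normalized counts were 3740.3, 3233 and 3458 in DMSO replicates 1, 2 and 3, 3286, 3438 and 3489.5 in VHL-r, and 3442, 3283 and 3055 in R4VPL3-1. All 3 groups overlapped, with the highest value in DMSO replicate 1 and the lowest in R4VPL3-1 replicate 3. The means were 3477 ± 254 (SD, n = 3) in DMSO, 3405 ± 106 (SD, n = 3) in VHL-r and 3260.1 ± 194 (SD, n = 3) in R4VPL3-1. The fold in R4VPL3-1 against DMSO was 0.938 (95% interval 0.866 to 1.02, limma adjusted p = 0.255). In VHL-r against DMSO it was 0.981 (95% interval 0.905 to 1.06, limma adjusted p = 0.792), and its sign turned without DMSO replicate 1, to 0.03 on the log2 scale. In R4VPL3-1 against VHL-r the fold was 0.957 (95% interval 0.883 to 1.04, limma adjusted p = 0.834). A rise of HSF1 mRNA above 1.06-fold lay outside all 3 intervals.

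HSF2 mRNA also did not pass the test. Its normalized counts were 602, 588 and 602 in DMSO replicates 1, 2 and 3, 645, 551 and 539 in VHL-r, and 632, 626 and 587 in R4VPL3-1. VHL-r held both the highest and the lowest library, so its spread covered the other groups, with a mean of 579 ± 58.3 (SD, n = 3) against 598 ± 8.0 (SD, n = 3) in DMSO and 615 ± 24.6 (SD, n = 3) in R4VPL3-1. The fold was 1.03 in R4VPL3-1 against DMSO (95% interval 0.921 to 1.15, limma adjusted p = 0.754) and 0.965 in VHL-r against DMSO (95% interval 0.865 to 1.08, limma adjusted p = 0.715). In R4VPL3-1 against VHL-r it was 1.07 (95% interval 0.955 to 1.19, limma adjusted p = 0.819). The log2 ratio of HSF2 to HSF1 within a library, which does not depend on the size factor, was -2.54 ± 0.09 (SD, n = 3) in DMSO, -2.56 ± 0.19 (SD, n = 3) in VHL-r and -2.41 ± 0.03 (SD, n = 3) in R4VPL3-1. In R4VPL3-1 it was higher than in DMSO by 0.13, and every R4VPL3-1 library lay above every DMSO library. The two-sided exact permutation test gave p = 0.1, the smallest that 3 against 3 libraries allow, and 0.15 after Benjamini-Hochberg adjustment over the 6 ratio tests run, so the difference did not pass. The ratio differed by -0.02 in VHL-r against DMSO (exact permutation p = 0.8) and by 0.16 in R4VPL3-1 against VHL-r (exact permutation p = 0.4), and both pairs of groups overlapped.

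**Figure D2:**
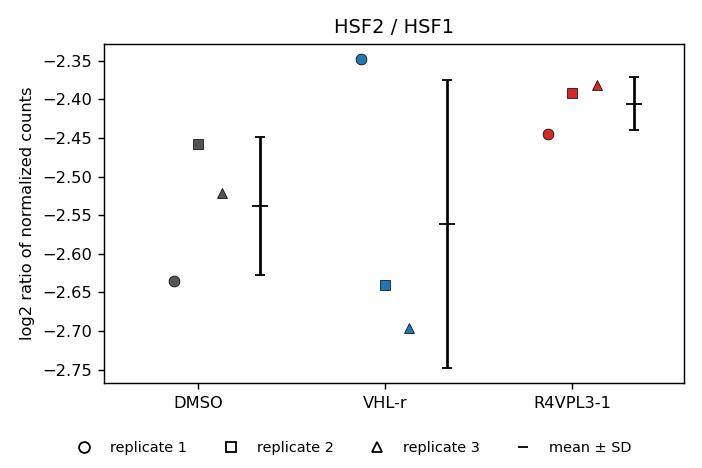
Log2 ratio of HSF2 to HSF1 normalized counts in each library (vertical axis, not from 0) by treatment, with symbols for replicates 1 to 3 and a bar for the mean ± SD of 3 libraries. The R4VPL3-1 libraries lie at -2.44 to -2.38, above the DMSO libraries at -2.64 to -2.46, and VHL-r, at -2.70 to -2.35, overlaps both.

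HSF4 was the least abundant of the 4 genes, and it was not called in any comparison. Its normalized counts were 107, 105 and 112 in DMSO replicates 1, 2 and 3, 97.1, 102 and 119 in VHL-r, and 143, 113 and 85.7 in R4VPL3-1. R4VPL3-1 replicates 1 and 3 were the highest and the lowest of all 9 libraries, and its mean of 114 ± 28.6 (SD, n = 3) had a coefficient of variation of 25.1%, where counting alone would give 9.63%. The fold in R4VPL3-1 against DMSO was 1.03 (95% interval 0.816 to 1.31, limma adjusted p = 0.877), and without R4VPL3-1 replicate 1 its log2 value turned from 0.05 to -0.13. The fold in VHL-r against DMSO was 0.978 (95% interval 0.772 to 1.24, limma adjusted p = 0.925), and its log2 value turned to 0.03 without VHL-r replicate 1. In R4VPL3-1 against VHL-r it was 1.06 (95% interval 0.834 to 1.34, limma adjusted p = 0.948), with a log2 value of -0.10 without R4VPL3-1 replicate 1. Changes of HSF4 within these wide intervals were not detectable with these libraries. In addition, 27.06% of the exon bases of HSF4 lie under an unnamed gene of the same strand (ENSG00000265690, at most 0.93 normalized counts), where the counting assigns a read to neither gene.

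**Figure D3:**
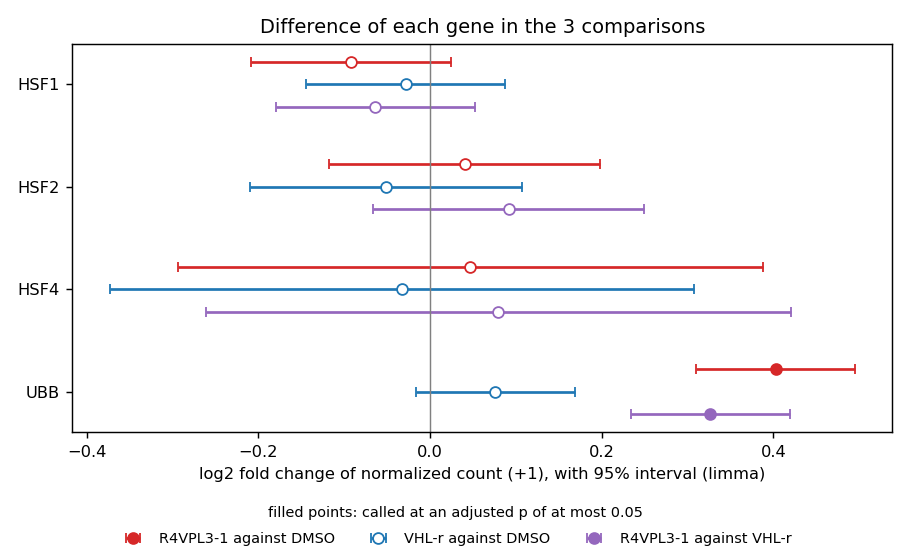
Log2 fold change of each gene on the log2(normalized count + 1) scale (horizontal axis) with its 95% interval from limma, in the comparisons of R4VPL3-1 and VHL-r with DMSO and of R4VPL3-1 with VHL-r. Filled points are called at an adjusted p of at most 0.05. UBB has the filled points, at 0.40 and 0.33, the other intervals include 0, and those of HSF4 are the widest.

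RPS27A, which also supplies ubiquitin, was not called in any comparison. It was at 22069.5, 22191 and 22484 normalized counts in DMSO replicates 1, 2 and 3, at 20859.9, 21468 and 22683 in VHL-r and at 20978, 21723 and 23312 in R4VPL3-1, and the 3 groups overlapped. Its log2 fold change was -0.02 in R4VPL3-1 against DMSO (limma adjusted p = 0.827), -0.04 in VHL-r against DMSO (limma adjusted p = 0.623) and 0.02 in R4VPL3-1 against VHL-r (limma adjusted p = 0.95).

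Known target genes of HSF1, mostly chaperones, rose in many cases upon treatment with R4VPL3-1. The list was chosen with earlier results of these data known, so its counts are a description. Of 35 listed genes, 33 could be tested, and in R4VPL3-1 against DMSO 24 were called higher, 0 lower and 9 not called, where 13.1% of all tested genes were called higher. Their median log2 fold change was 0.29, beside -0.01 for all tested genes. VHL-r against DMSO gave 7 called higher and 0 lower, where 10.3% of all tested genes were called higher, with a median of 0.04. Against VHL-r, 17 were called higher in R4VPL3-1 and 0 lower, where 1.14% of all tested genes were called higher, with a median of 0.22. In each of these comparisons edgeR and DESeq2 also called 0 lower. In R4VPL3-1, against DMSO and against VHL-r, the inducible HSP70 genes HSPA1A and HSPA1B had the largest changes of the list, and in VHL-r against DMSO the largest was that of IER5, at 1.24 on the log2 scale. HSPA1B was at 174 to 184 normalized counts in DMSO, 321 to 475 in VHL-r and 5284 to 6910 in R4VPL3-1, which is 5.14 on the log2 scale for R4VPL3-1 against DMSO (limma adjusted p = 6.61e-18). HSPA1A was at 561 to 646 in DMSO, 882 to 1089 in VHL-r and 13459 to 18274 in R4VPL3-1. HSPA1A and HSPA1B are near-identical paralogs, so reads can be split between them. DNAJB1, a cochaperone of HSP70, was at 6348 to 6751 in DMSO, 9896 to 10904 in VHL-r and 39199 to 56176 in R4VPL3-1. For each of these 3 genes the 3 groups did not overlap.

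In R4VPL3-1 against DMSO the target nearest to UBB in size was HSP90AA1. This gene, the inducible cytosolic HSP90, had a log2 fold change of 0.43 in R4VPL3-1 against DMSO (limma adjusted p = 7.19e-07) and 0.36 against VHL-r, beside 0.40 and 0.33 for UBB. HSPA8, the constitutive HSP70, rose by 0.76 and 0.67 in the same comparisons, and HSPH1, an HSP70 exchange factor, by 0.62 and 0.49. The small heat shock protein HSPB1 rose by 0.34 and 0.41. The HSP70 cochaperone BAG3 rose by 1.43 and 1.04, and the mitochondrial chaperonin HSPD1 by 0.24 and 0.24. Of the 33 tested targets, 14 had a larger log2 fold change than UBB in R4VPL3-1 against DMSO, and 14 in R4VPL3-1 against VHL-r. A 3-unit motif was found before the canonical start of 9 of the 33 targets and a paired motif before 21. HSPA6 was listed at 0 in every library and DNAJB4 had a mean of 2.09, so neither was tested. HSPE1, tested and not called, had a mean of 53.6 normalized counts. Its level is uncertain, and 10.53% of its exon bases lie under HSPE1-MOB4 on the same strand. The cause of its low count was not tested.

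**Figure D4:**
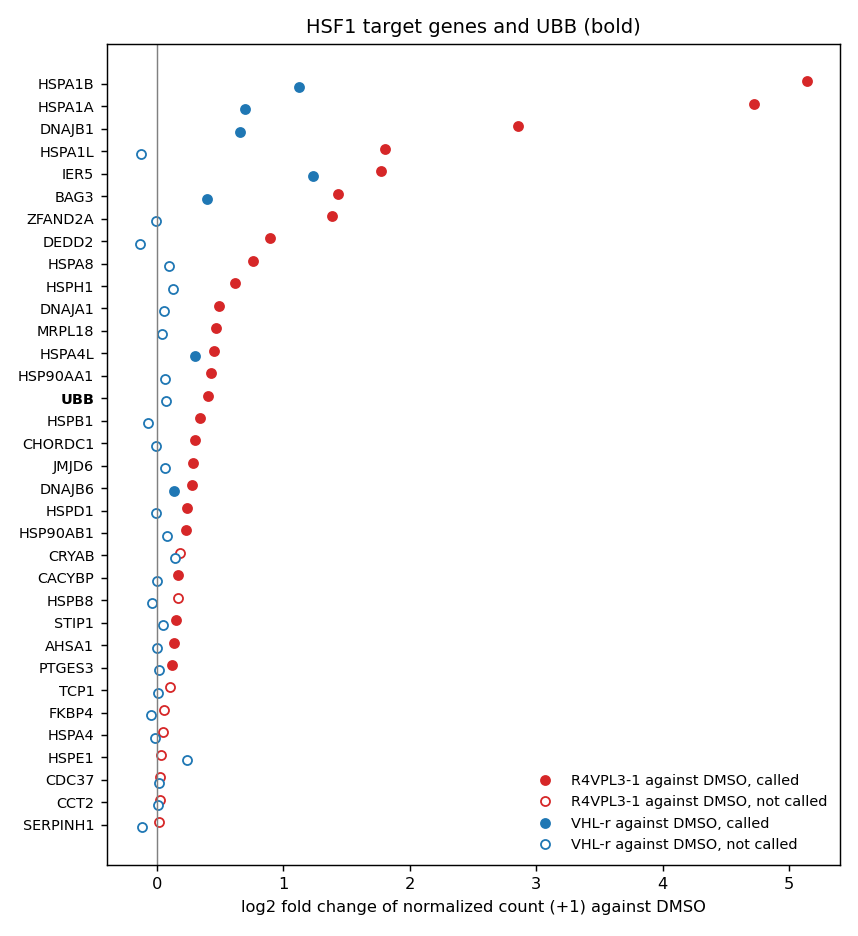
Log2 fold change against DMSO on the log2(normalized count + 1) scale (horizontal axis) of the 33 tested HSF1 target genes and of UBB, in bold, ordered by the change in R4VPL3-1, with R4VPL3-1 in red and VHL-r in blue, and filled points called at a limma adjusted p of at most 0.05. UBB, at 0.40 in R4VPL3-1 and 0.08 in VHL-r, lies next to HSP90AA1, and HSPA1B reaches 5.14.

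Of 31 listed regulators and partners of the heat shock factors, 30 could be tested. Among them HSBP1 had a mean of 34.7 normalized counts, with 14.34% of its exon bases under another gene of the same strand. In R4VPL3-1 against DMSO 10 of the 30 were called higher and 1 lower, beside 13.1% of all tested genes called higher and 24.9% in either direction, with a median of 0.07 on the log2 scale. Of these 10, HSP90AA1, HSP90AB1, HSPA8, PTGES3, HSPB1 and IER5 are counted in the target list too. For VHL-r against DMSO 4 were called higher and 1 lower, beside 10.3% called higher and 19.8% in either direction of all tested genes, with a median of 0.04. Between the compounds, R4VPL3-1 against VHL-r, 4 were called higher and 0 lower, beside 1.14% of all tested genes called higher, with a median of 0.01, and these 4 were HSP90AA1, HSPA8, HSPB1 and IER5, which also belong to the target list. Outside the rule for naming, and chosen after their values were seen, are DAXX, a histone chaperone that binds HSF1 and the 1 gene called lower against DMSO in both comparisons (log2 fold change -0.32 in R4VPL3-1 and -0.24 in VHL-r), and SIRT1, MTOR and GSK3B, which with IER5 were the 4 called higher in VHL-r. SIRT1, a deacetylase that acts on HSF1, rose by 0.53 in R4VPL3-1 and 0.55 in VHL-r, both against DMSO and on the log2 scale. IER5, which binds HSF1 and promotes its activity, had the largest change of this list against DMSO. It was at 1363 to 1518 normalized counts in DMSO, 3189 to 3665 in VHL-r and 4281 to 5303 in R4VPL3-1, with no overlap between groups. Its log2 fold change was 1.77 in R4VPL3-1 and 1.24 in VHL-r against DMSO (limma adjusted p = 1.18e-13 and 7.04e-11), and 0.53 in R4VPL3-1 against VHL-r (limma adjusted p = 6.14e-05).

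Of the other listed genes of the heat shock factor family, HSF2BP, which encodes a binding partner of HSF2, was the 1 of 6 that could be tested. It was at 19.7 to 26.4 normalized counts in DMSO, 21.0 to 38.9 in VHL-r and 14.0 to 21.4 in R4VPL3-1. It was not called in any comparison, with limma adjusted p of 0.521, 0.676 and 0.632. HSF5 had a mean of 0.648 and HSFX1 of 1.23 normalized counts over the 9 libraries, and HSFX2, HSFX3 and HSFX4 were listed at 0, which was not read as absence.

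Of 18 listed genes that activate, release or recycle ubiquitin, 16 could be tested, and in R4VPL3-1 against DMSO 1 was called higher and 2 lower, beside 24.9% of all tested genes called in either direction, and the median was 0.01 on the log2 scale. USP2, a deubiquitinase, had the largest change, 0.46 (limma adjusted p = 0.0422), at 59.0 to 73.0 normalized counts in DMSO and 86.6 to 92.1 in R4VPL3-1, but DESeq2 called 0 of the 16 higher. The 2 called lower, named after their values were seen, were OTULIN, which cuts linear ubiquitin chains, with -0.18, and UBA6, a ubiquitin-activating enzyme, with -0.17. For VHL-r against DMSO, where limma called 19.8% of all tested genes, 0 were called higher by limma, edgeR or DESeq2 and 1 lower, and this was OTULIN, at -0.24 on the log2 scale (limma adjusted p = 0.00451). In R4VPL3-1 against VHL-r 0 of the 16 were called by limma, edgeR or DESeq2, and 0 had an unadjusted limma p under 0.05, where 1.87% of all tested genes were called.

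Of 13 genes of ubiquitin-like modifiers, 12 could be tested, and NEDD8 was listed at 0. NEDD8 is used by every cell and shares 12.89% of its exon bases with NEDD8-MDP1 on the same strand, so this 0 was not read as absence. In R4VPL3-1 against DMSO 3 were called higher and 3 lower, beside 24.9% of all tested genes in either direction, and the median was -0.02 on the log2 scale. Likewise, VHL-r against DMSO gave 3 called higher and 2 lower, beside 19.8% of all tested genes, and the same median of -0.02. UBL4A, which acts in the delivery of membrane proteins, had the largest change in both, -0.52 in R4VPL3-1 and -0.49 in VHL-r (limma adjusted p = 3.15e-07 and 9.11e-07). The others called, named after their values were seen, were MAP1LC3B, ATG12 and UFM1, which rose in both, SUMO3, which fell in both, and SUMO2, which fell in R4VPL3-1. Between R4VPL3-1 and VHL-r limma and edgeR called 0 and DESeq2 1, with 1 at an unadjusted limma p under 0.05, where limma called 1.87% of all tested genes.

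As a description across the 9 libraries, which share the 3 treatments, the genes whose log2 normalized counts ran most like those of UBB included XBP1 (Pearson r = 0.985), FTL (0.983), HSPA1B (0.98) and DNAJB1 (0.979). XBP1 encodes a transcription factor of the unfolded protein response and FTL the light chain of ferritin. XBP1 had log2 fold changes of 0.36 in R4VPL3-1 and 0.05 in VHL-r against DMSO, and FTL of 0.54 and 0.11. The genes most like HSF1 were NFIX (0.962), ADAMTS15 (0.953), RIPOR1 (0.951), NPRL3 (0.938) and RELA (0.936). Those most like HSF2 were HELLS (0.966), ZNRF2P1 (0.938), KIAA1549 (0.937), CLN8 (0.903) and ARID1A (0.898). Those most like HSF4 were ZNF784 (0.95), ZNF354A (0.92), HCN3 (0.905), DUSP22 (0.898) and COQ4 (0.897). Among the 4 genes themselves r was 0.512 between HSF1 and HSF4, 0.287 between HSF4 and UBB, 0.213 between HSF2 and UBB, 0.139 between HSF2 and HSF4, -0.134 between HSF1 and HSF2 and -0.343 between HSF1 and UBB. The listed genes were chosen from those with the highest r to each of the 4 genes. That r was lower among the 4 genes themselves follows from this choice, so no conclusion was drawn from it. How high the largest r would run by chance over 9 libraries was not tested.

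Of the reads of 100 bases that could come from the canonical transcript, 5.88% of the windows of UBB were not unique, 3.96% because they also occur in the pseudogene UBBP4, which had at most 30.5 normalized counts, and 1.92% because they repeat among the ubiquitin units. For HSF4 the share was 18.53%, all with ENSG00000265690, for HSF2 0.88% and for HSF1 0.0%. On the opposite strand, ENSG00000265401 covers 29.42% of the exon bases of UBB, and the counting used strand.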

How the data were processed

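RNA-seq of A375R cells treated with DMSO, VHL-r or R4VPL3-1 was analysed, with 3 libraries each. The reads were aligned by the authors with STAR on GRCh38 and counted by gene, on the reverse strand setting, with htseq-count, and the authors divided the counts by DESeq2 (1.36.0) size factors. The deposited signal is thus a normalized count, given to 2 decimals for 62710 genes, and 0 value columns were left unused. Dividing each value by the step of its library recovered the reads, since 100.0% of the values up to 2000 reads were whole within 0.02 reads. Total reads had a median of 28165279, at which counting error is about 4% for HSF2, 9.63% for HSF4 in R4VPL3-1 and under 2% for HSF1 and UBB.

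Because normalization had been applied, limma (3.58.1, R 4.3.3) was the main test, with trend on log2(normalized count + 1), restricted to the 15230 genes whose mean was 10 or more, and the 9 libraries entered 1 fit with treatment as its factor. A gene was called when its p, adjusted over all genes tested after Benjamini and Hochberg, did not exceed 0.05. Fold changes on this scale understate those of low genes. Ratios were compared with exact permutation tests.

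The 4 genes and the gene lists were chosen with earlier results of these data known. Beside the 4 genes, the text names the genes of each list called in R4VPL3-1 against VHL-r, the member with the largest change in each comparison with DMSO, and the 5 genes most correlated with each of the 4. Some of these genes are not reported here. The alternatives were edgeR (4.0.16) and DESeq2 (1.42.0) run on the reads, a replicate block, pseudocounts of 5 and 0.1, a minimum mean of 50 or none, TMM or upper quartile scaling, robust limma, the 6 libraries compared alone, leaving out each replicate, and the longest transcript as length. Gene models came from GENCODE 44, whose positions equal the deposited ones for the 4 genes.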

Additional observations from a re-analysis of the deposited data

How the results depend on the processing

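Over 20 alternatives in each of 3 comparisons, 236 of 240 values of the 4 genes kept their direction and their call, 4 turned in sign and 0 changed a call. Several alternatives cannot move a fold change and so vary only the call. These are the other filters, robust limma, the replicate block, the 6 libraries alone and leaving out a replicate of the group not compared. The log2 fold change of UBB ranged from 0.38 to 0.43 in R4VPL3-1 against DMSO (adjusted p 2.58e-16 to 1.53e-05, the lowest from DESeq2 and the others from limma and edgeR), from 0.29 to 0.36 against VHL-r (8.27e-10 to 0.00201) and from 0.04 to 0.11 in VHL-r against DMSO (0.119 to 0.627).

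All 4 values that turned came from leaving out 1 replicate. HSF4 in R4VPL3-1 ranged from -0.13 to 0.24 against DMSO and from -0.10 to 0.27 against VHL-r, with both lowest values without R4VPL3-1 replicate 1. In VHL-r against DMSO, HSF4 ranged from -0.12 to 0.027, turning without VHL-r replicate 1, and HSF1 from -0.079 to 0.026, turning without DMSO replicate 1. The log2 ratio of HSF2 to HSF1 in VHL-r against DMSO, main value -0.02, ranged from -0.13 to 0.044 and turned without VHL-r replicate 2 (0.017), VHL-r replicate 3 (0.044) or DMSO replicate 2 (0.017). The count of genes called in R4VPL3-1 against VHL-r was 285, 182 without R4VPL3-1 replicate 1, and 182 to 357 over the replicates left out. The cause was not tested.

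With a replicate block 4241, 3451 and 389 genes were called in R4VPL3-1 against DMSO, VHL-r against DMSO and R4VPL3-1 against VHL-r, beside 3792, 3016 and 285 without it, and no call of the 4 genes changed (UBB adjusted p 2.49e-07, 0.255 and 4.39e-05). Same-numbered libraries correlated at -0.006 to 0.121 in their deviations, and differently numbered ones at -0.148 to 0.098. Not every library correlated best with its own number (DMSO replicate 1 with R4VPL3-1 replicate 2, 0.098). Of the same-numbered correlations, only that of DMSO replicate 1 with R4VPL3-1 replicate 1 (-0.006) lay below 0, whereas differently numbered ones lay on both sides. The sample numbers in the labels run through replicate 1 of each treatment, then 2, then 3, but name no pairs. Since the ranges also overlap, whether same-numbered libraries are pairs was not settled, and the main fit has no block. TMM and upper quartile scaling moved the median of all genes by at most 0.02. With the longest transcript as length the levels per kilobase moved (UBB in DMSO to 14803, HSF1 to 1008, HSF2 to 226, HSF4 to 47.2). Their order was kept, but the ratios between genes moved with them.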
